A study of Mus musculus with 6 samples.

Results

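Methionine synthase and the enzymes around it form the methionine and folate cycles. The 9 genes described here (Mtrr, Mtr, Mthfd1, Mthfd1l, Mat2a, Mat2b, Ahcy, Shmt1 and Cbs) were taken by symbol from the 55401 gene identifiers of the deposited expression table, and all 9 were found and measured. The set was selected on the lower Mtrr level in Emp1-deficient hematopoietic stem cells (HSCs), so the genotype differences of its members are given as a description, with no test, and support nothing.

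RNA was sequenced from mouse bone marrow HSCs, sorted by surface proteins as LSK cells (no lineage markers, with Sca-1 and c-Kit) that carry CD150 and lack CD48. The controls were 3 libraries from mice with floxed Emp1 alleles (Emp1fl/fl), and the Emp1-deficient group was 3 libraries from mice that carried Tie2-Cre as well (Emp1fl/fl,Tie2-Cre). The Tie2 promoter drives Cre in endothelial and blood-forming cells, and both genotypes carry the floxed alleles. The controls are not labelled as carrying Cre, so loss of Emp1 and presence of Cre cannot be told apart. The labels give neither age nor sex, nor do they call the replicates separate animals, and p-values cover only the spread between these libraries, which may be technical. Values are the authors' FPKM, fragments scaled to transcript length and to the library's total, which allow genes to be compared per length. Differences are Emp1-deficient minus control on the log2(FPKM + 1) scale, fitted with limma over the 15723 genes that reached 1 FPKM in at least 3 libraries, which included all 9 members.

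Emp1 itself, which encodes a tetraspan membrane protein, ran from 2.64 to 4.32 FPKM in the controls and from 0.27 to 0.70 FPKM in the Emp1-deficient libraries, and its limma adjusted p, 0.0577, was above the threshold of 0.05. Genes at 1 FPKM or more numbered 14334 to 18048 per library. Relative depth, estimated from low single-exon genes, ran from 0.773 to 1.86 with control replicate 1 set to 1, and Emp1-deficient replicate 3 was the deepest. Absolute depth is unknown. Mitochondrially encoded transcripts took 4.06 to 4.80% of the FPKM sum in controls and 5.41 to 6.98% in Emp1-deficient libraries, without overlap. All 10 HSC markers were detected, with a summed level of 725 to 892 FPKM in controls and 606 to 823 FPKM in Emp1-deficient libraries. Cd48 RNA was present at 22.9 to 49.6 FPKM although the sort excluded the protein at the surface. Of the 11 marker lists compared, a pair reached the lowest possible p by genotype in their sum or in their mean log2 level. T and NK cell markers summed to 199 to 265 FPKM in controls and 268 to 377 FPKM in Emp1-deficient libraries (two-sided exact permutation p = 0.1, which is the lowest 3 against 3 can give; adjusted over 22 tests, 0.978). Nkg7, of cytotoxic granules, made up most of that sum, with means of 217 and 313 FPKM, 3 of the 8 markers averaged at least 1 FPKM, and no marker was at 0 throughout. The mean log2 level of the same 8 markers went the other way, from 1.77 in controls to 1.57 in Emp1-deficient libraries (exact permutation p = 0.2, adjusted 0.978). Single markers differed in direction. Cd4 had means of 4.78 and 0.93 FPKM and Cd3e of 0.967 and 0.783 FPKM, while Klrb1c, like Nkg7, was higher, with means of 2.39 and 3.30 FPKM. Monocyte and macrophage markers (8 of 9 at 1 FPKM or more, none at 0 throughout) had a mean log2 level of 3.38 and 3.01 (exact permutation p = 0.1, adjusted 0.978), with sums of 330 to 365 FPKM in controls and 311 to 342 FPKM in Emp1-deficient libraries. The part of these lists, and of the mitochondrial share, in the values below was not tested. In such bulk samples, fewer cells of a type and less RNA per cell cannot be told apart.

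In the methionine cycle, methionine synthase (Mtr) moves a methyl group from methyl-tetrahydrofolate to homocysteine with cobalamin, the vitamin B12 cofactor, as the carrier. The cofactor is oxidized now and then, which stalls the enzyme, and methionine synthase reductase (Mtrr), a flavoprotein that draws electrons from NADPH, restores it. Methionine becomes S-adenosylmethionine (SAM), the methyl donor for DNA, RNA, histones and lipids, and the folate cycle that feeds the same reaction also supplies carbon units for purines and thymidylate. Mouse HSCs are known to be sensitive to the supply and handling of amino acids.

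Mtrr starts head to head with Fastkd3, which encodes a mitochondrial RNA-binding protein of the FASTK family. Their annotated starts (GENCODE M21, GRCm38) are separated by 84 bases on chromosome 13. This gap is shown because both genes were lower in every Emp1-deficient library, and the bases before the start of Mtr, the partner enzyme gene on the same chromosome, are shown beside it because that gene was not. Both are from the RefSeq promoter table (GRCm38.p6) and are written 5′ to 3′ on the minus strand, which is the coding strand of Mtrr and of Mtr. Capitals mark the searched motifs CCAAT and GGGCGG on either strand.
Mtrr-Fastkd3 gap, chr13:68582150-68582233: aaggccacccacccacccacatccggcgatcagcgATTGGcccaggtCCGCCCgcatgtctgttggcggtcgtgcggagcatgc
Mtr upstream, chr13:12258114-12258363: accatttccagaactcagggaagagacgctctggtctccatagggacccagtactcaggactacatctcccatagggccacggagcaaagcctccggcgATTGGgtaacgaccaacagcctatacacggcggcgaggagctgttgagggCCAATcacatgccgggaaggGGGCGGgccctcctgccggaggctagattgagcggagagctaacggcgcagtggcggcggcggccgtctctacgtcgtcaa
The gap holds 1 CCAAT and 1 GGGCGG match, and the 250 bases before Mtr hold 2 and 1. The gap was 67.9% G and C, and the Mtr bases were 62.0%.

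Across the 300-base entries of the promoter table (250 bases before to 50 after a start, 27025 genes), CCAAT on either strand was in 37.9% and GGGCGG in 35.9%. Of the 9 members, 8 held CCAAT (all but Mthfd1l) and 9 held GGGCGG. The G and C content of the members' entries ran from 52.7% (Ahcy) to 69.7% (Mtrr), beside a median of 52.7% over all genes. Whether the motif counts go beyond this content was not tested. The motif of NRF1, a factor for nuclear genes of mitochondrial proteins, was in 4.78% of all entries and in that of Mtrr alone among the members, at 2 positions outside the gap. The promoter table listed 2 entries for Mtrr and 1 for each other member. TATAAA was in 14.2% of all entries and in that of Mat2a. CACGTG, the E-box, was in 7.24% and in that of Cbs. TGATGNAA, an element bound by ATF4, was in 4.06% of entries and in 0 of the 9. These motifs were chosen after the sequences had been seen, and a match or its absence describes these letters in this window only.

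Mtrr (ENSMUSG00000034617, chr13:68560780-68582149) had the lowest values relative to control of the 9 genes. Its level was 12.05, 15.60 and 13.88 FPKM in the controls and 6.71, 5.98 and 7.34 FPKM in the Emp1-deficient libraries. Each Emp1-deficient library lay below each control, and the mean was 51.8% lower (13.8 ± 1.78 against 6.68 ± 0.681 FPKM, SD, n = 3 each). The fitted difference was -0.95 (SE 0.15), and 203 of the 15723 tested genes had a lower one. These are the values that led to the choice of the set.

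Fastkd3 (ENSMUSG00000021532, chr13:68582234-68592338) was named by its position next to a member. The gap sequence and the later survey of head-to-head pairs were chosen with the Fastkd3 values known. Fastkd3 had 12.58, 10.04 and 12.03 FPKM in the controls, against 7.06, 6.37 and 7.04 FPKM in the Emp1-deficient libraries. No Emp1-deficient value reached the lowest control, and the means were 11.55 and 6.82 FPKM. Lower values without overlap were found for 13.2% of tested genes. The fit gave -0.68 (SE 0.14), and its adjusted p by limma, 0.0879, was above the threshold of 0.05. Over the alternatives tried the adjusted p ran from 0.0448, when the fit kept protein-coding genes with 400 bp or more of exons, to 0.298. The exons of the pair share no base. The ratio of Mtrr to Fastkd3 was 0.958, 1.55 and 1.15 in the controls and 0.950, 0.939 and 1.04 in the Emp1-deficient libraries, so it overlapped between the genotypes. The 11 other protein-coding genes tested within 1 Mb of Mtrr had differences of -0.39 to 0.20, and 0 of them passed by limma (1 at an unadjusted p under 0.05, smallest adjusted p 0.303).

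**Figure D1:**
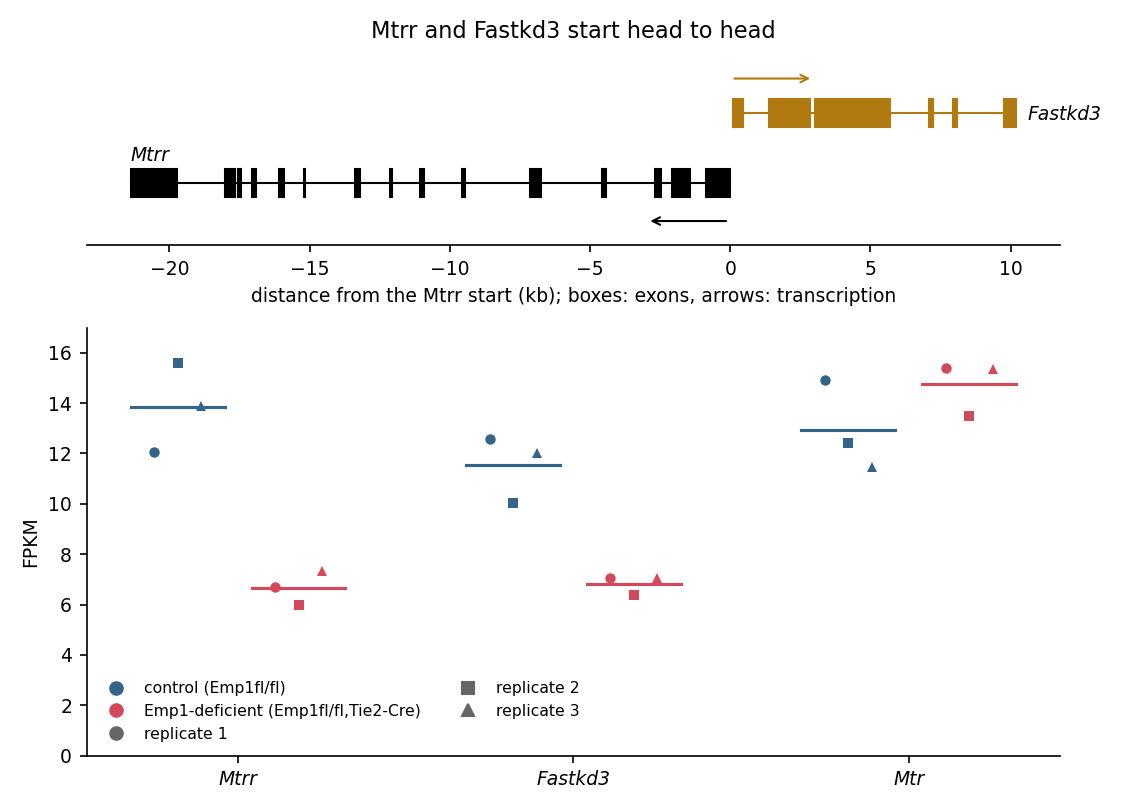
Top, exons (boxes) of Mtrr and Fastkd3 by distance in kb from the Mtrr start, with arrows for the direction of transcription. Bottom, FPKM of Mtrr, Fastkd3 and Mtr in each library (marker shape, replicate; line, mean of 3): for Mtrr and Fastkd3 the Emp1-deficient libraries lie between 5.98 and 7.34 FPKM and below every control, and for Mtr the genotypes overlap.

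Mtr (ENSMUSG00000021311, chr13:12182712-12258113), the synthase that Mtrr reactivates, did not share this difference. Its level was 14.92, 12.42 and 11.45 FPKM in the controls and 15.40, 13.47 and 15.35 FPKM in the Emp1-deficient libraries. Its genotypes overlapped, and the fitted difference was 0.18 (SE 0.14). Within a library, Mtrr RNA per Mtr RNA was 0.808, 1.26 and 1.21 in the controls and 0.436, 0.444 and 0.478 in the Emp1-deficient libraries. The lowest control ratio, that of replicate 1, was above the highest Emp1-deficient one. This ratio holds the Mtrr values that led to the choice of the set, so it is no separate result.

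SAM is made by methionine adenosyltransferase, of which Mat2a encodes the catalytic subunit outside the liver and Mat2b a regulatory subunit. Mat2a (ENSMUSG00000053907, chr6:72432799-72439558) was the most abundant member, with 287.66, 255.02 and 300.91 FPKM in the controls and 237.01, 255.26 and 254.02 FPKM in the Emp1-deficient libraries. Its genotypes overlapped through control replicate 2, which lay just below the highest Emp1-deficient library, and the difference was -0.17 (SE 0.10). Mat2b (ENSMUSG00000042032, chr11:40679314-40695203) had 112.92, 114.96 and 105.23 FPKM in the controls, against 121.84, 118.40 and 132.65 FPKM in Emp1-deficient libraries. It was the member with every Emp1-deficient value above every control, by a fitted difference of 0.16 (SE 0.094) and a mean 11.9% higher. The ratio of Mat2a to Mat2b was 2.55, 2.22 and 2.86 in the controls and 1.95, 2.16 and 1.91 in the Emp1-deficient libraries. The ratios did not overlap, although control replicate 2 and Emp1-deficient replicate 2 lay close together. The share of all gene pairs without such overlap was not computed, and among single tested genes it was 22.1%. Mat2a shares 508 exonic bases with Particl, a transcript on the opposite strand at 5.95 and 3.81 FPKM on average. The sources used here do not give whether counting used strand, so reads of that stretch cannot be told apart.

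**Figure D2:**
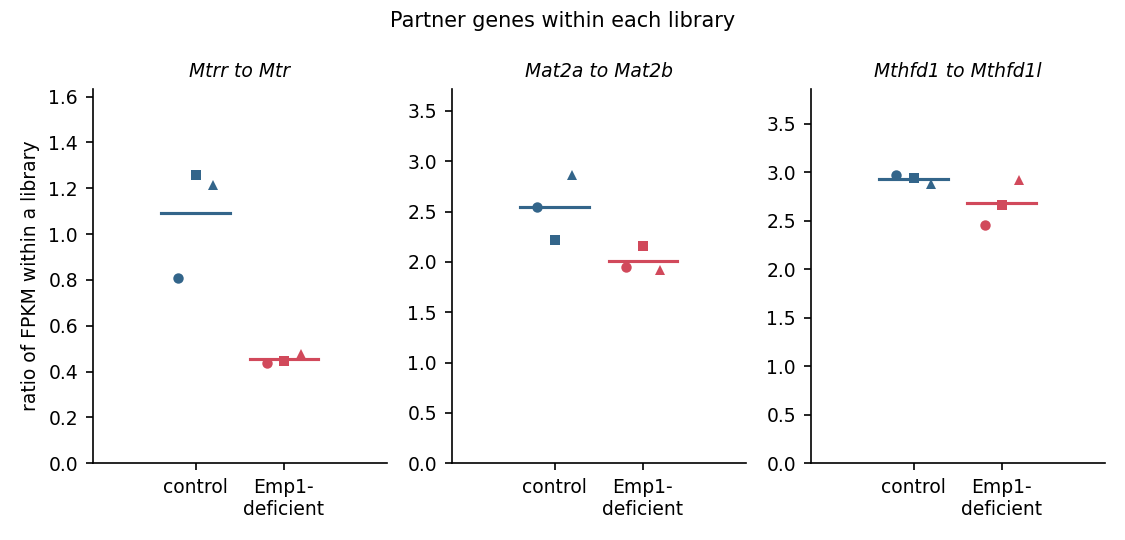
Ratio of FPKM within each library for 3 pairs of members (points, libraries with marker shape for the replicate; lines, means of 3; each axis starts at 0). The ratios Mtrr to Mtr and Mat2a to Mat2b do not overlap between genotypes, whereas Mthfd1 to Mthfd1l does. The ratio Mtrr to Mtr holds the Mtrr values that led to the choice of the set. The share of all gene pairs without overlap was not computed.

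Ahcy (ENSMUSG00000027597, chr2:155059310-155074497) encodes the hydrolase that clears S-adenosylhomocysteine, the product left when SAM gives up its methyl group. Its level was 40.72, 35.25 and 39.32 FPKM in the controls and 38.52, 27.00 and 27.14 FPKM in the Emp1-deficient libraries. Emp1-deficient replicate 1 lay among the controls while replicates 2 and 3 lay below them, and the difference was -0.32 (SE 0.15). It ran from -0.49, without Emp1-deficient replicate 1, to -0.24 with 1 library left out. An annotated gene, Gm4737, matches 2083 bases of the longest Ahcy transcript at 99.7% identity, and Gm9826 matches 1299 bases at 99.2%. They stood at means of at most 1.83 and 0.463 FPKM, so how reads were divided between these copies and Ahcy is uncertain. Cbs (ENSMUSG00000024039, chr17:31608894-31637238), which diverts homocysteine toward cysteine, was barely detected, with 0.64, 1.20 and 1.26 FPKM in the controls and 1.75, 0.96 and 0.27 FPKM in the Emp1-deficient libraries. Those libraries spanned the controls on both sides, and no direction can be read (difference -0.084, SE 0.34).

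Among the folate enzymes, Mthfd1 (ENSMUSG00000021048, chr12:76255298-76319803) encodes the trifunctional cytosolic enzyme that interconverts carbon units bound to tetrahydrofolate. It had 58.64, 54.16 and 52.12 FPKM in the controls and 48.03, 40.68 and 44.33 FPKM in the Emp1-deficient libraries. Beside Mtrr it was the other member with no overlap in the lower direction, with a mean 19.3% lower and a difference of -0.31 (SE 0.10). Mthfd1l (ENSMUSG00000040675, chr10:3973118-4167081), the mitochondrial enzyme that releases formate to the cytosol, had 19.77, 18.45 and 18.13 FPKM in the controls and 19.61, 15.27 and 15.17 FPKM in the Emp1-deficient libraries. As for Ahcy, Emp1-deficient replicate 1 lay among the controls and the others below, with a difference of -0.17 (SE 0.13). It ran from -0.29, without Emp1-deficient replicate 1, to -0.11 with 1 library left out. Shmt1 (ENSMUSG00000020534, chr11:60788104-60811718), the cytosolic serine hydroxymethyltransferase, had 38.81, 39.03 and 28.31 FPKM in the controls and 38.20, 32.90 and 35.01 FPKM in the Emp1-deficient libraries. Every Emp1-deficient value lay within the control range, and the difference was 0.012 (SE 0.14). Shmt1 shares 184 exonic bases with Smcr8 on the opposite strand, whose means were 5.44 and 4.02 FPKM.

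**Figure D3:**
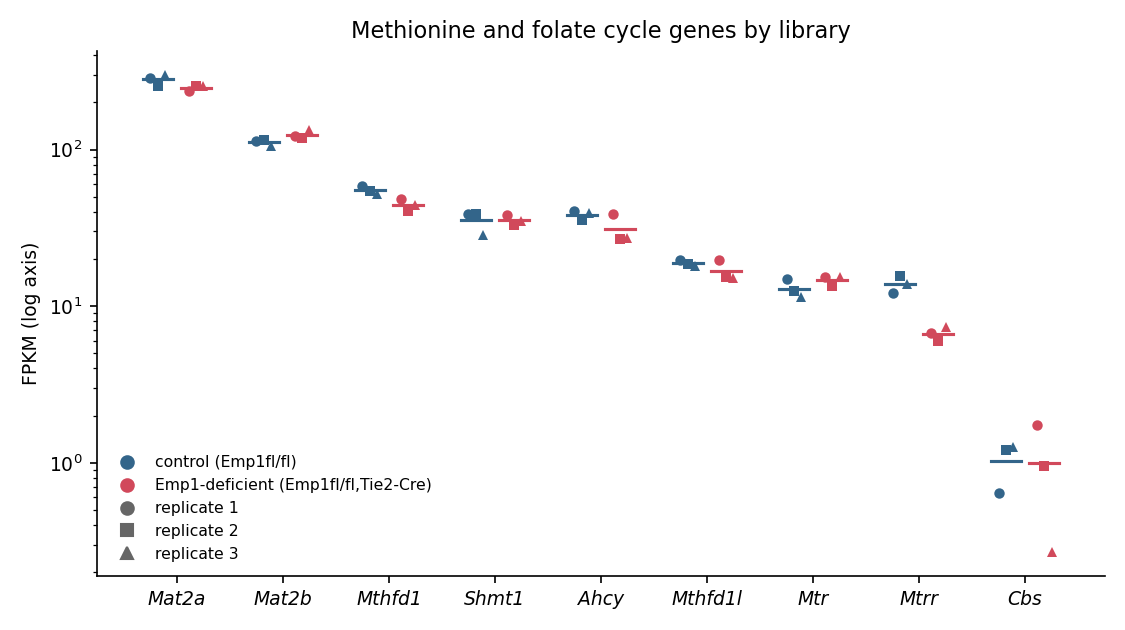
FPKM on a log axis of the 9 members in each library, ordered by their mean over 6 libraries (marker shape, replicate; lines, means of 3). Levels run from 265 FPKM for Mat2a to 1.01 FPKM for Cbs, and Mtrr is the member whose genotypes are farthest apart.

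By mean level over the 6 libraries the order was Mat2a (265 FPKM), Mat2b (118), Mthfd1 (49.7), Shmt1 (35.4), Ahcy (34.7), Mthfd1l (17.7), Mtr (13.8), Mtrr (10.3) and Cbs (1.01 FPKM). Mat2a exceeded 97.7% of the tested genes in level, Mtr 55.5%, Mtrr 49.3% and Cbs 3.91%. Of neighbours in this order, Mat2a, Mat2b, Mthfd1 and Shmt1 did not overlap from one to the next in any library, nor did Ahcy with Mthfd1l or Mtrr with Cbs. Shmt1 and Ahcy could not be ordered, since Shmt1 was the higher in 3 of 6 libraries. Mthfd1l exceeded Mtr in 5 of 6 libraries and Mtr exceeded Mtrr in 4, with overlapping ranges. The spread within genotypes also differed. The residual SD on the log2 scale was 0.076 for Mat2b, smaller than in most genes of like level (14.4% had a smaller one). For Ahcy it was 0.21, and 78.4% of genes of like level had a smaller one.

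Of the 9 members, 1 (Mtrr) passed a limma adjusted p under 0.05, a call made for 0.267% of all tested genes, or for 0.108% in the lower direction. Mtrr was the last of the 42 genes called when ranked by p. The count was 0 without any of the 6 libraries in turn and in 13 of 16 alternatives overall. The genotypes did not overlap for 3 members, against 22.1% of tested genes; 2 of the 3 were lower (13.2% of tested genes) and 1 higher (8.91%). Nothing is read from these counts, since the set was chosen in the same contrast. The fitted difference was negative for 6 members and positive for 3, with a median of -0.17 for all 9 and -0.13 for the 8 other than Mtrr, beside -0.046 over all tested genes, of which 56.9% were negative. Shmt1 turned negative in 4 of 16 alternatives and Cbs positive in 2 of 15, while the other 7 kept their direction in 16 of 16. The S phase marker list had a mean log2 level of 6.36 in controls and 6.37 in Emp1-deficient libraries (exact permutation p = 1). For the list of G2 and M phase markers it was 5.22 and 5.45 (exact permutation p = 0.4, adjusted 0.978). A relation of these lists to the folate genes was not tested.

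**Figure D4:**
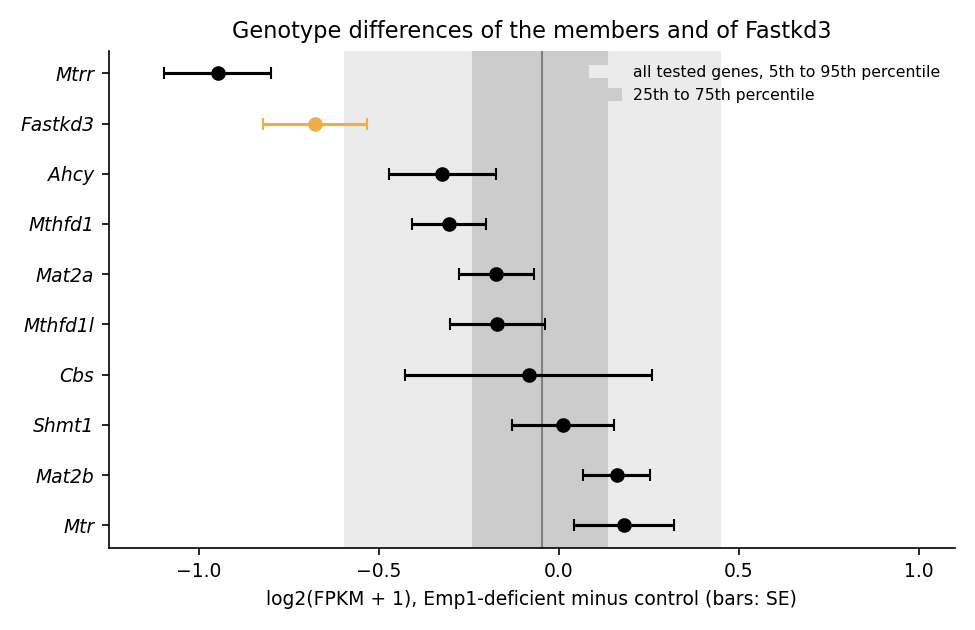
Fitted difference on the log2(FPKM + 1) scale, Emp1-deficient minus control, with its SE, for the 9 members (black) and Fastkd3 (orange), over the range of all tested genes (light, 5th to 95th percentile, -0.59 to 0.45; dark, 25th to 75th). Mtrr and Fastkd3 lie outside the light band, and the other 8 members lie within it.

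The profile over the 6 libraries was compared as the root mean square distance between log2 values centred on each gene's mean, among 9251 protein-coding genes with a mean of at least 5 FPKM. Nearest to Mtrr were Tns1 (0.12), H2-Q6 (0.13), Hist1h1c (0.14), Socs2 (0.14) and Cish (0.14), on the log2 scale. The Mtrr profile holds the values that led to the choice of the set. Genes with a like fall between the genotypes are thus near it by construction, and nothing is read from their functions. Tns1 encodes tensin, a focal adhesion protein, with control and Emp1-deficient means of 20.9 and 11.8 FPKM. Socs2 and Cish encode cytokine-induced inhibitors of STAT signalling. Socs2 averaged 22.0 and 11.9 FPKM, and Cish 36.3 and 20.2 FPKM. Fastkd3 ranked 73rd, at 0.24. The nearest genes to the other members were Psmc4 to Mtr (0.031), Srprb to Mthfd1 (0.028), Pebp1 to Mthfd1l (0.029), Hk1 to Mat2a (0.032), Kdelc1 to Mat2b (0.020), Tmem14c to Ahcy (0.038), Mtrf1 to Shmt1 (0.038) and Rmdn2 to Cbs (0.080). Among the members, Mthfd1 and Mthfd1l lay closest (0.097), followed by Mtr and Mat2b (0.099), and Mtrr lay farthest from Mtr (0.60). The distance is not scaled by spread, so genes that vary little lie close to each other. The distances of Mtrr hold the genotype difference that led to the choice of the set.

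Around these genes, 108 others of connected pathways were followed, of which 92 were tested. By limma 0 rose and 0 fell, while an unadjusted p under 0.05 was found for 3 higher and 10 lower, which is 14.1% of them against 16.2% of all tested genes (6.5% higher and 9.72% lower). The genotypes did not overlap for 16 in the lower direction (17.4%, against 13.2% of all tested genes) and for 4 of the 92 in the higher (8.91% of all tested genes). The median difference was -0.030, beside -0.046 over all tested genes.

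Of 8 tested genes of the methionine cycle and its transport, 6 were negative, against 56.9% of all tested genes, and 0 passed. Slc43a2, a transporter of large neutral amino acids including methionine, averaged 8.89 ± 0.973 and 5.20 ± 1.01 FPKM (SD, n = 3 each), with no overlap (limma adjusted p = 0.111). Adk, the kinase that removes the adenosine Ahcy releases, averaged 71.2 and 87.8 FPKM (limma adjusted p = 0.293). The genes for the liver-type enzymes Mat1a, Bhmt and Bhmt2 were under 0.5 FPKM in every library.

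Mmachc, which processes the vitamin in the cytosol, had 20.27, 20.38 and 20.49 FPKM in controls and 21.09, 19.91 and 19.85 FPKM in Emp1-deficient libraries. Mmadhc, which directs it to its enzymes, averaged 70.5 and 72.9 FPKM (limma adjusted p = 0.850). Of 11 tested cobalamin genes 0 passed, and 4 (36.4%) did not overlap in the lower direction, against 13.2% of all tested genes. Among these 4 were Abcd4, which exports cobalamin from lysosomes, at 10.04 and 7.39 FPKM (limma adjusted p = 0.332), Abcc1, an exporter of cobalamin and many other substrates, at 31.8 and 24.2 FPKM (limma adjusted p = 0.162), and Mut, the mitochondrial mutase that is the other cobalamin-dependent enzyme of mammals, at 16.9 and 13.3 FPKM (limma adjusted p = 0.230).

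In the cytosolic folate list 8 of 11 tested genes were positive, with a median difference of 0.040, and 0 passed. Gart, of purine synthesis, averaged 80.8 and 83.8 FPKM, a difference of 0.047 that turned negative on rescaling to TPM and on quantile normalization. Atic, which completes purine synthesis, averaged 30.8 and 25.8 FPKM (limma adjusted p = 0.370). Fpgs, which adds the glutamate tail that keeps folate in the cell, averaged 33.7 and 27.3 FPKM without overlap (limma adjusted p = 0.191). In the mitochondrial list (11 tested, 4 positive, 0 passed), Shmt2, the mitochondrial counterpart of Shmt1, averaged 105 and 92.6 FPKM and so stood above Shmt1 in every library, with a ratio of Shmt1 to Shmt2 of 0.277 to 0.405. Pdpr, a regulatory subunit of pyruvate dehydrogenase phosphatase related to folate-binding dehydrogenases, averaged 7.74 and 5.27 FPKM (limma adjusted p = 0.206).

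The serine and glycine list had 7 of 8 negative, against 56.9% of all tested genes, and 0 passed. Its median difference was -0.053, beside -0.046 over all tested genes. Phgdh, the first enzyme of serine synthesis, averaged 248 ± 25.2 and 212 ± 45.3 FPKM, and Atf4, a transcription factor that induces serine and mitochondrial folate genes, 135 and 111 FPKM without overlap (limma adjusted p = 0.499 and 0.268). Beyond Cbs, the sulfur and glutathione list (11 tested, 5 positive) had 0 that passed. Sqor, which oxidizes sulfide, averaged 12.5 and 8.26 FPKM, Suox, which oxidizes sulfite, 3.48 and 2.43 FPKM, and Gclm, the modifier subunit of glutathione synthesis, 62.7 ± 10.9 and 89.3 ± 38.3 FPKM. In Gclm the highest value, 128.99 FPKM, was that of Emp1-deficient replicate 3, and the difference of 0.43 was 0.12 without it. Of methionine salvage and polyamine genes (11 tested, 5 positive, 0 passed), Enoph1 averaged 33.9 and 27.9 FPKM, Sat1, which acetylates polyamines for export, 236 and 295 FPKM, and Oaz1, an inhibitor of polyamine synthesis, 1374 and 1434 FPKM. Sat1 was highest in Emp1-deficient replicate 3, at 380.11 FPKM, and its difference of 0.29 was 0.093 without that library.

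Among enzymes that use SAM, 9 of 17 tested were positive and 0 passed. Icmt, which methylates the ends of prenylated proteins such as Ras, had 12.42, 15.42 and 13.57 FPKM in controls, against 6.67, 8.62 and 7.77 FPKM in Emp1-deficient libraries. The genotypes were well separated, with a difference of -0.77 (SE 0.15), yet the limma adjusted p was 0.0740. Dnmt1, the maintenance DNA methyltransferase, averaged 76.7 ± 7.31 and 59.0 ± 2.79 FPKM (limma adjusted p = 0.138). Prmt1, the main arginine methyltransferase, went the other way, with 114 ± 2.13 and 150 ± 25.4 FPKM (limma adjusted p = 0.209). Of flavin-dependent reductases related in function to Mtrr (5 tested, 2 positive), 0 passed. Por, the reductase of microsomal cytochromes P450 and a close relative of Mtrr, averaged 97.7 and 95.9 FPKM. Ndor1, of the same diflavin family, averaged 37.5 and 31.1 FPKM (limma adjusted p = 0.328), and Cyb5r3, which passes electrons to cytochrome b5, 76.3 and 90.4 FPKM (limma adjusted p = 0.278).

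**Figure D5:**
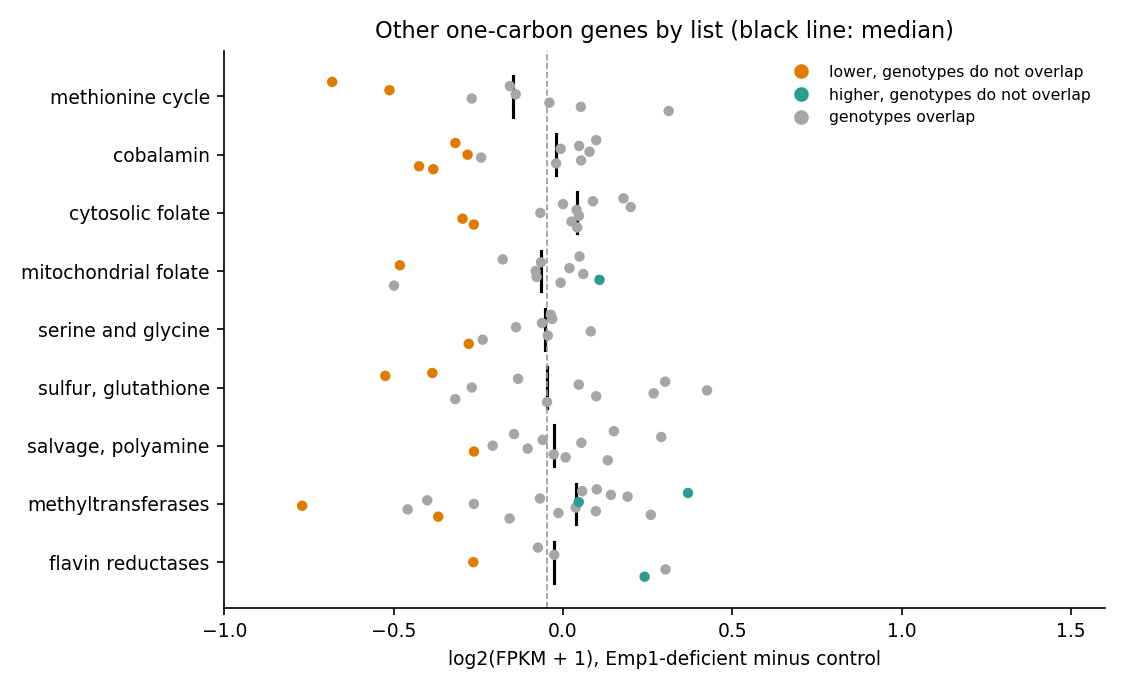
Fitted difference on the log2(FPKM + 1) scale, Emp1-deficient minus control, of the 92 tested genes in the 9 pathway lists (orange and green, genotypes without overlap in the lower and higher direction; grey, overlapping; black lines, medians; dashed line, median of all tested genes; genes in more than 1 list appear in each). Icmt at -0.77 and Slc43a2 at -0.68 are the lowest, and the list medians lie between -0.15 and 0.040.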

How the data were processed

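The authors' deposited FPKM values (2 decimals, 6 libraries) were used. Per the labels' protocols, RNA was extracted with a miRNeasy kit, amplified by the Geo-seq method, and libraries came from the TruePrep V2 kit. The submitters' processing notes name DESeq2, HTSeq, Cufflinks 2.1.1 and Bowtie 0.12.9, and the build mm10. The step that made the FPKM values is not given in the sources used. FPKM are relative to each library's total, and amplification adds scatter they do not show.

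Symbols and positions came from GENCODE M21 on GRCm38, the assembly mm10 denotes, which matched 55141 of 55401 identifiers. Of identifiers sharing a symbol, the one with the highest mean kept it. Genes that reached 1 FPKM in 3 or more libraries entered a limma 3.58.1 fit (R 4.3.3) of log2(FPKM + 1) (trend, robust, two-sided, genotype as the only term, Benjamini-Hochberg over all genes). The pseudocount understates changes near 1 FPKM. Library measures were compared by exact two-sided permutation. Near-identical copies were sought with blastn (at least 95% identity over 200 bases). The fit was tested on simulated data in which all genes shared the same spread, unlike these data, so nothing is read from it about the calls reported here. The alternatives were other pseudocounts, filters, scalings and variance settings, a replicate block and each library left out.

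The members and lists were chosen with earlier results of these data known. The rule for named genes took the members, Emp1, the 2 smallest p and the highest mean of each list, nearest profiles and genes overlapping or head to head with a member. Genes named outside it (Mat1a, Bhmt, Bhmt2, Mmachc, Abcd4, Nkg7, Klrb1c, Cd4, Cd3e, Cd48) were chosen after their values were seen. Sgsh and Slc26a11, also outside it, were named by a cut set with values known, and Gm4737 and Gm9826 by the blastn search. A gene that the rule takes is not reported here.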

Additional observations from a re-analysis of the deposited data

How the results depend on the processing

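Over 16 alternatives, the Mtrr difference of -0.95 stayed negative, from -1.04 to -0.69 (the latter with a pseudocount of 5), and from -1.04 to -0.86 with 1 library left out. The median of the members, -0.17, ran from -0.29 to -0.11 with 1 library left out. The count of members called, 1 (Mtrr), was 0 with a pseudocount of 0.1 or 5, with no filter, on rescaling to TPM, with quantile normalization, without trend or robust fitting, with a replicate block and with any library left out (0 to 0). It stayed 1 with a mean filter of 5 FPKM, when only protein-coding genes with 400 bp or more of exons were kept and with array weights. The call therefore depends on the setting, and the cause was not tested.

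The 42 genes called over all became 15 with a pseudocount of 5, 5 with no filter, 104 with the mean filter, 24 with quantile normalization, 212 among protein-coding genes, 82 with array weights, 8 without trend or robust fitting and 8 with the replicate block; with 1 library left out they ran from 5 to 40. The count of pathway genes called, 0, became 1 (Icmt, lower, limma adjusted p = 0.0496 and 0.0359) with the mean filter and among protein-coding genes, where fewer genes share the adjustment, and stayed 0 in 14 alternatives. Emp1, at -1.53 and limma adjusted p = 0.0577, passed among protein-coding genes (-1.53, adjusted p = 0.0185) and with array weights (-1.52, adjusted p = 0.0456). It was not tested under the mean filter, nor was Cbs.

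Differences near 0 changed sign. Mmadhc was -0.0022 on rescaling to TPM. Gart was -0.0027 on rescaling to TPM, -0.011 with quantile normalization and -0.0054 to 0.12 with 1 library left out. Por ran from -0.063 to 0.017 and Oaz1 from -0.052 to 0.11 with 1 library left out.

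The labels do not say whether equal replicate numbers pair the libraries. Deviations from genotype means correlated at -0.11, 0.086 and -0.052 across genes for the same-numbered pairs. The highest correlation, 0.18, was between control replicate 1 and Emp1-deficient replicate 3. With 3 libraries per genotype the deviations within a genotype depend on each other, so these values cannot decide whether a pairing exists. Depth per library is unknown in absolute terms, so no counting error can be given.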

Other observations

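Head-to-head gene pairs were looked at across the genome after the values of Mtrr and Fastkd3 had been seen. Of 581 pairs of tested protein-coding genes with starts up to 1000 bases apart, 15 (2.58%) had both genes lower without overlap between the genotypes. Among single tested genes, 13.2% were lower without overlap. No share for unlinked pairs was computed, so nothing is read from the count of 15. Both log2 differences were below -0.6 in 2 pairs, Mtrr with Fastkd3 (-0.95 and -0.68) and Sgsh with Slc26a11 (-0.66 and -0.61), which start 20 bases apart. The cut of -0.6 was set with the Mtrr and Fastkd3 values known, so that pair was certain to pass and nothing is read from its rarity. Sgsh encodes a lysosomal sulfatase and Slc26a11 a sulfate transporter. Across the 581 pairs, 304 (52.3%) had the same direction in both genes and the pair's differences correlated at r = 0.052, a description across pairs that share libraries. Of all tested genes, 56.9% had a negative difference.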
